A study of Danio rerio with 45 samples.

Results

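The genes described here are 150 of the 31465 genes counted in bulk RNA sequencing of zebrafish blastula explants. Their mean level was higher at 6 than at 4 hours post fertilisation (hpf) in uninjected control explants, and also higher at 6 than at 4 hpf in explants kept in cycloheximide (CHX), an inhibitor of translation. They were chosen by their measured values. Group means of log2(CPM + 1), where CPM is counts per 1000000 of a library's total, had to differ by more than 1 between 6 and 4 hpf both in controls and in CHX-treated explants. At 6 hpf the mean of explants injected with 10 pg of ndr2 mRNA had to lie within 1 log2 unit of the control mean. Of the 1077 genes that met these 3 limits, leaving out ribosomal protein and mitochondrial symbols, the 150 with the largest smaller rise of the pair were kept. A further 1847 genes met the control limit and the ndr2 limit but had a CHX difference of 1 or less. The files name genes by Ensembl ID. A symbol was found for 149 of the 150 genes, and symbols are spelled as the reference table gives them, some of them in capitals.

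In zebrafish the egg supplies mRNA and protein that run the first cell cycles, and the genome of the embryo is switched on during blastula stages while much of the maternal mRNA is cleared. The maternally supplied factors Nanog, Pou5f3 and Sox19b bind many of the first genes to be transcribed. CHX stalls elongating ribosomes, so a transcript that still accumulates in its presence may be made with proteins that were already there when the drug was added. Neither the extent of the block nor new transcription was measured here. The ndr2 gene encodes a Nodal ligand of the TGF-beta family, which patterns mesoderm and endoderm in the early embryo. The genes below include cell junction components, matrix proteins, receptors, transcription factors, RNA-binding proteins and enzymes.

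All explants were animal pole explants of AB strain embryos, cultured in Dulbecco's Modified Eagle Medium and collected at 4, 5 and 6 hpf, with 3 libraries per group and age as deposited. The CHX-treated explants carried 10 pg of ndr2 mRNA, injected into a single animal pole cell at the 128-cell stage, and received CHX at a labelled dose of 50 µg/µl from 20 min after the injection until collection. The other groups were uninjected controls and explants injected in the same way with 2, 6 or 10 pg of ndr2 mRNA without CHX. No group with CHX but no ndr2 was analysed here. The CHX-treated explants thus differ from controls in both respects. How many explants made a library, and whether replicates came from separate clutches, is not stated by the labels. The p-values therefore rest on the spread between libraries, and that spread may be technical. Total counts per library ran from 12137856 to 28551066, with a median of 21190615. The columns of replicate 3 at 4 hpf for 10 pg and for 10 pg with CHX held the same value for every gene and were both left out. This left 43 libraries, with 2 replicates in each of those 2 groups.

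**Figure D1:**
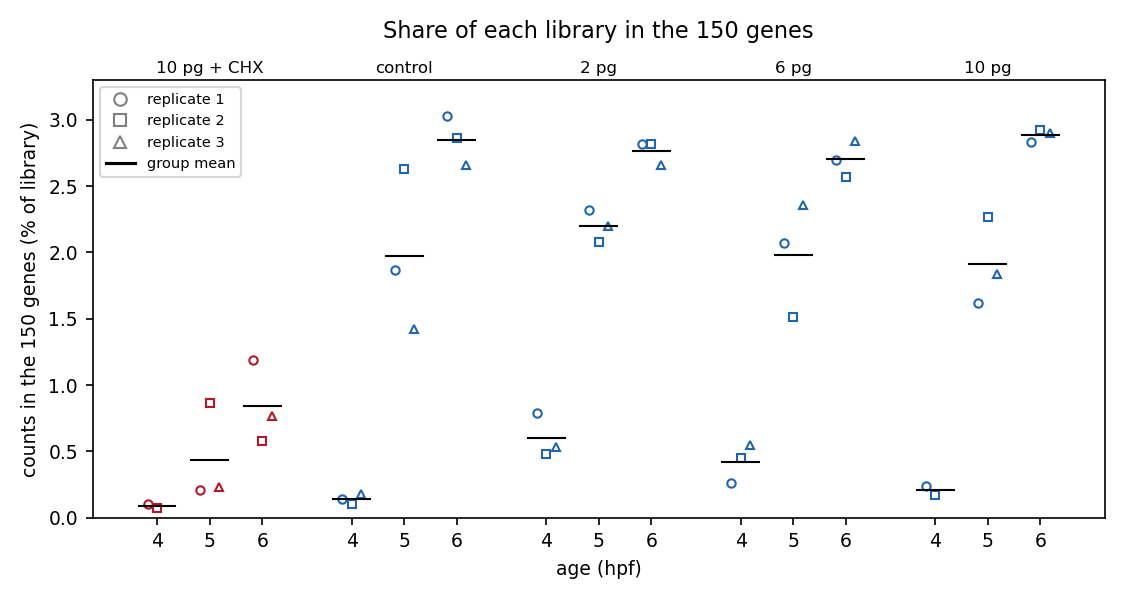
Share of each library's counts that fell in the 150 genes, in percent, against age in hpf, with the treatments side by side on one axis. Points are libraries, marker shapes are replicate numbers and black bars are group means. The CHX libraries reach a mean of 0.845% at 6 hpf, against 2.88% with 10 pg of ndr2 alone, and replicate 2 of the CHX group stands at 0.863% at 5 hpf, far above the other CHX libraries of that age.

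The share of all counts taken by the 150 genes shows the size of the rise and the libraries that stood apart. In CHX-treated explants the share was 0.0892 ± 0.0193% at 4 hpf (SD, n = 2), 0.435 ± 0.371% at 5 hpf and 0.845 ± 0.313% at 6 hpf (SD, n = 3 each). In controls it was 0.141 ± 0.0404%, 1.97 ± 0.614% and 2.85 ± 0.185% at 4, 5 and 6 hpf (SD, n = 3 each). With 10 pg of ndr2 and no CHX it was 0.206 ± 0.0489% at 4 hpf (SD, n = 2), 1.91 ± 0.327% at 5 hpf and 2.88 ± 0.0522% at 6 hpf (SD, n = 3 each). The genes made up a larger share at each later age in all 3 treatments, and the CHX mean at 6 hpf lay below the control mean at 5 hpf. The choice of genes fixed the rise from 4 to 6 hpf in controls and with CHX. It also held the 10 pg level at 6 hpf near that of controls, so these shares are a description. These levels are relative to each library's total. The amount of RNA per explant was not measured, and fewer cells that carry a transcript cannot be told apart from less of it per cell.

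Libraries of the CHX group differed from each other at 5 hpf. The share was 0.212% in replicate 1, 0.863% in replicate 2 and 0.23% in replicate 3, and replicate 2 was the highest of the 3 libraries in all but 4 of the 150 genes. At 6 hpf the CHX libraries stood at 1.19%, 0.58% and 0.764%, and replicate 1 was the highest in 117 genes. Among controls at 5 hpf, replicate 2 was the highest in 98 genes. In 10 pg explants at 5 hpf replicate 2 also had the highest share, 2.27% against 1.62% and 1.84% in replicates 1 and 3. With 2 pg and 6 pg at that age replicate 2 had the lowest share, 2.08% and 1.51%. Counts of genes called lower with CHX than with 10 pg at 5 hpf are therefore given with and without CHX replicate 2, and values of single genes without it where the call or the direction differs.

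The values that chose the genes are given as a description, without a test. The difference between 6 and 4 hpf had a median of 3.89 log2 units in controls, from 2.37 to 8.84 over the 150 genes. In CHX-treated explants the median was 3.01, from 2.37 to 5.48. The CHX difference was the smaller of the pair in 118 genes and the larger in 32. Starting levels were low: the mean was under 1 CPM at 4 hpf in 52 genes in CHX-treated explants and in 45 genes in controls. Just inside the limit stood mid1ip1a, FGFR2, mst1ra, igf2bp2b and si:ch1073-385i9.2, whose smaller rise was 2.40, 2.38, 2.37, 2.37 and 2.37. Just outside it stood ABI1, PAMR1, MAST1, GREB1L and fgfr4, at 2.37, 2.36, 2.35, 2.35 and 2.35, so the limit falls in a continuous series of values.

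**Figure D2:**
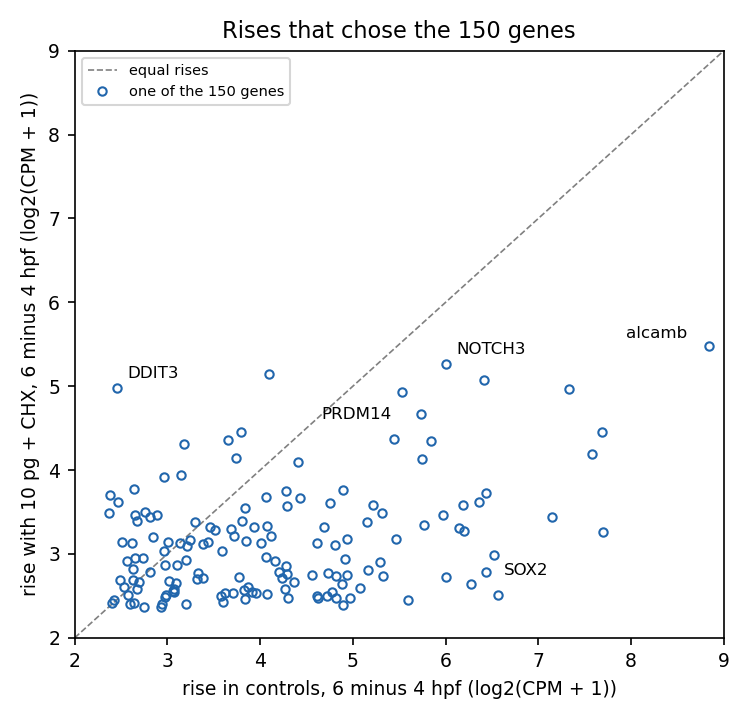
Difference in mean log2(CPM + 1) between 6 and 4 hpf in CHX-treated explants (vertical axis) against the same difference in controls (horizontal axis), one point per gene. Most of the 150 genes lie below the line of equal rise, with alcamb at 5.48 against 8.84, while DDIT3 lies above it at 4.98 against 2.46.

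Whether these genes rose in libraries that had no part in their choice was asked of explants injected with 2 or 6 pg of ndr2, and of the 10 pg explants at 5 hpf against 4 hpf. Called genes are those with an adjusted p under 0.05 in edgeR's quasi-likelihood test, with Benjamini-Hochberg adjustment over the 21075 genes tested. All 150 genes passed the filter on low counts. In 6 pg explants 144 of the 150 genes were higher at 6 than at 4 hpf and 0 were lower, against 28.3% higher and 31.3% lower among all genes tested. In 2 pg explants 135 were higher and 0 lower, against 28.0% and 30.8% of all genes. In 10 pg explants 148 were higher at 5 than at 4 hpf and 0 lower, against 23.0% and 21.5% of all genes. The median log2 fold change of the 150 genes was 3.49, 3.16 and 4.07 in these 3 comparisons, while that of all genes was -0.119, -0.0946 and 0.0663. A total of 132 genes were called higher in all 3, and each of the 150 in at least 1, counts not made over all genes tested. The FAM13A and atp1b3a genes were not called in the 10 pg comparison, with log2 fold changes of 1.92 and 2.14. The 15 genes not called in 2 pg explants at 6 over 4 hpf were si:ch1073-385i9.2, TNFRSF21, TP53INP1, bbc3, plekhn1, rassf7b, epha2a, epha2b, trpm4b.1, ZFP36L1, F2R, SLC7A3, MAGI1, wu:fc75a09 and si:ch211-117c9.5.

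Without CHX, much of the difference was present within the first hour. In 2 pg explants 120 genes were already higher at 5 than at 4 hpf, against 21.4% of all genes, and in 6 pg explants 134, against 23.0% of all genes. As a description, the control mean at 5 hpf stood at a median of 67.7% of the way from the level at 4 hpf to that at 6 hpf in CPM, and the CHX mean at 46.8%. The mean at 5 hpf lay between those at 4 and 6 hpf in 137 genes in controls and in 144 genes in CHX-treated explants. Both CHX values at 5 hpf include replicate 2, the library that stood apart. Its share of counts was 0.863%, against 0.212% and 0.23% in replicates 1 and 3. The CHX group means were 0.0892% at 4 hpf and 0.845% at 6 hpf.

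**Figure D3:**
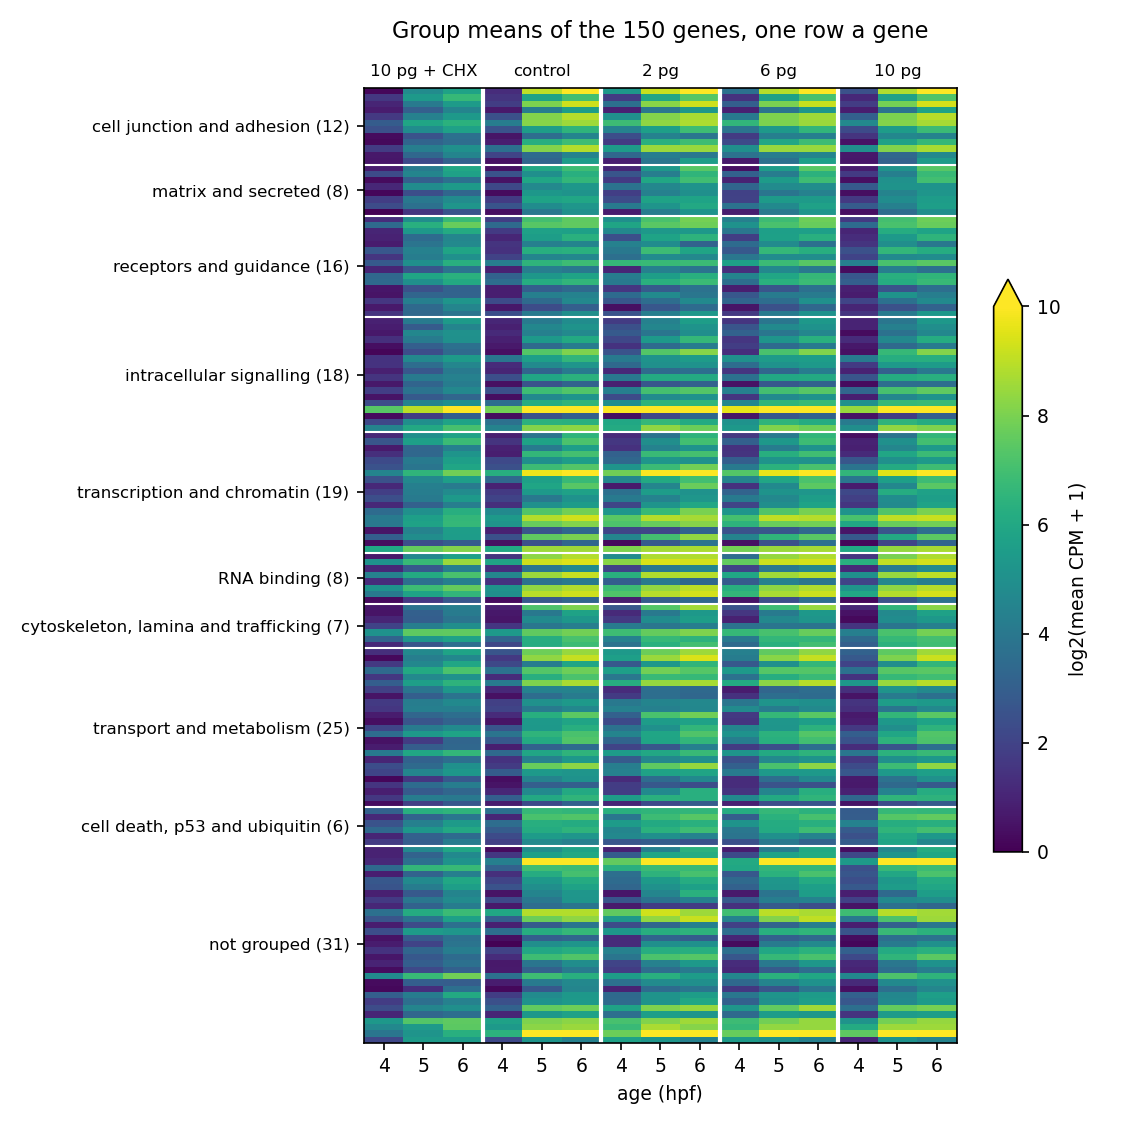
Heat map of log2(mean CPM + 1) for the 150 genes (rows, ordered by role) in the 15 groups of treatment and age (columns). Colours run from dark at low levels to light at high levels. They lighten from 4 to 6 hpf in each treatment, more weakly in the CHX columns. The 2 pg and 6 pg columns at 4 hpf are already lighter than the 10 pg column of that age.

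The genes were chosen to increase with age under CHX, but most of them stayed well below the level of explants without it. This was tested at 5 hpf, an age the choice of genes did not use. Against 10 pg explants, 97 of the 150 genes were lower with CHX and 1 was higher, beside 24.2% lower and 25.0% higher among all genes tested, with a median log2 fold change of -1.87. Against controls, 105 were lower and 1 higher, beside 24.6% and 24.1% of all genes, with a median of -1.91. The 90 genes called lower in both comparisons are not independent evidence, since both use the same CHX libraries. Without CHX replicate 2, 135 genes were lower in each comparison, beside 26.0% of all genes against 10 pg and 26.1% against controls, and the medians were -3.53 and -3.57. The 97 genes lower against 10 pg were all called without it too, and 15 genes were called in neither case. With replicate 2 left out of both groups, an alternative added after the values were seen, 125 genes were lower against 10 pg and 126 against controls. Among all genes 4875 of 20963 and 4864 of 20987 were lower in that setting. Fitted on the libraries of the groups compared alone, 64 genes were lower against 10 pg and 54 against controls. Among all genes 4059 of 17717 and 3240 of 17492 were then lower. In 108 genes the CHX library was below the 10 pg library in all 3 same-numbered pairs, a count not made over all genes tested. The 3 CHX libraries lay below all 3 of the 10 pg libraries in 73 genes, beside 19.5% of all genes tested, and below all 3 control libraries in 65, beside 15.2%.

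The size of the gap varied widely between genes. At 5 hpf the CHX mean was a median of 35.5% of the 10 pg mean, and 10.6% without CHX replicate 2. Within same-numbered pairs the median was 9.6% for replicate 1, 61.8% for replicate 2 and 17.2% for replicate 3. At 6 hpf, as a description of libraries the rule used, it was 46.5%. The CHX mean was above the 10 pg mean in 17 genes at 5 hpf and in 23 genes at 6 hpf. The choice of genes fixed the direction with age under CHX, so under CHX only the level at 5 hpf was tested.

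**Figure D4:**
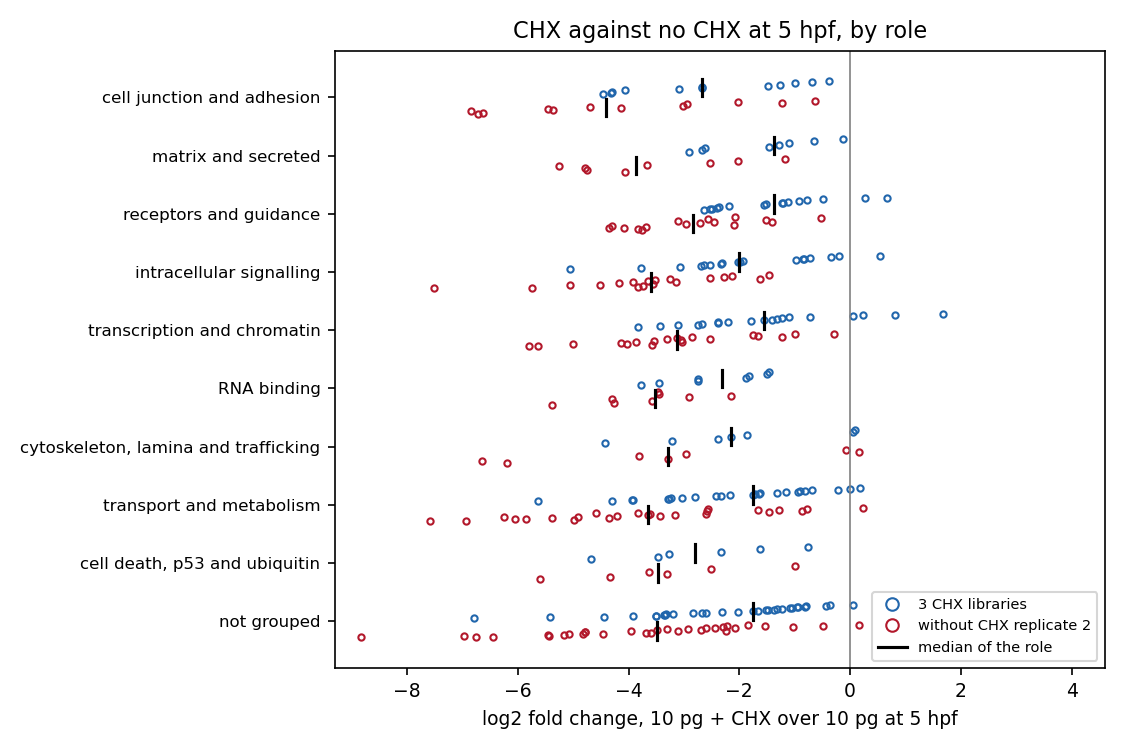
Log2 fold change of CHX-treated over 10 pg explants at 5 hpf for each of the 150 genes, grouped by role; blue points use 3 CHX libraries, red points leave out CHX replicate 2, and black ticks are the role medians of each. Most points lie below 0. The lowest blue point is -6.79, for si:ch211-125o16.4, and red points reach lower, as with -7.59 for CRABP2. Most red points lie lower than the blue ones, with medians over the 150 genes of -3.53 and -1.87.

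Cell junction and adhesion genes numbered 12 and held the gene with the largest rise. The counts of this set and of those below are to be read beside the shares of all genes tested given next. At 5 hpf 24.2% of all genes were lower with CHX than with 10 pg, or 26.0% without CHX replicate 2. The counts without CHX replicate 2 keep replicate 2 of the 10 pg group, which may enlarge the fall. That setting called 135 of the 150 genes lower. With replicate 2 left out of both groups 125 were lower, beside 4875 of 20963 genes tested. The counts of some roles are smaller in that setting, where DLC1, lhx5, SOX2, LARGE2 and atp1b3a were no longer called. In 6 pg explants 28.3% of all genes were higher at 6 than at 4 hpf. In 6 pg explants all 12 were higher at 6 than at 4 hpf, with a median log2 fold change of 5.37, and 7 were lower with CHX than with 10 pg alone at 5 hpf, with a median of -2.68, or 10 of 12 without CHX replicate 2. The alcamb gene (ENSDARG00000058538), which encodes an immunoglobulin-family cell adhesion molecule, had 2.86, 71.1 and 7.7 CPM in CHX-treated explants at 5 hpf, against 282, 641 and 433 CPM in 10 pg explants and 449, 864 and 205 CPM in controls. The groups did not overlap, and replicate 2 was the highest library in each of the 3 groups. Its log2 fold change with CHX over 10 pg was -4.46 ± 0.80 (SE, adjusted p = 2.76e-05). In 10 pg explants at 4 hpf it had only 5.6 and 3.56 CPM, and the log2 fold change at 5 over 4 hpf was 6.93 ± 1.10 (SE, adjusted p = 7.75e-06).

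Desmosome and tight junction genes among the 150 include DSP, PERP and cldn23.1, each lower with CHX, and PKP1, which was not called with all libraries. The DSP gene (ENSDARG00000022309), for desmoplakin, which ties keratin filaments to desmosomes, had 1.57, 42.5 and 4.43 CPM with CHX at 5 hpf, against 192, 358 and 178 CPM with 10 pg alone. Its log2 fold change was -4.31 ± 0.73 (SE, adjusted p = 1.39e-05). PERP, a desmosome-associated membrane protein and p53 target in mammals, fell by 4.06 ± 0.60 on the log2 scale (SE, adjusted p = 1.68e-06), and the claudin gene cldn23.1 by 4.30 ± 0.76 (SE, adjusted p = 2.13e-05). In each of the 3 genes every CHX library lay below every 10 pg library. PKP1, for the desmosomal plaque protein plakophilin, was not called, at -1.49 ± 0.71 (SE, adjusted p = 0.0837), but was called without CHX replicate 2, at -3.02 ± 0.81 (SE, adjusted p = 0.00229).

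CELSR1 and CELSR2 encode Flamingo-type cadherins of planar cell polarity, and neither was called lower with CHX against 10 pg at 5 hpf when all libraries were used. CELSR1 (ENSDARG00000069185) had 16.9, 94.7 and 14.4 CPM with CHX at 5 hpf, against 39.7, 77.1 and 38.3 CPM with 10 pg alone, so the groups overlapped through replicate 2. Its log2 fold change was -0.69 ± 0.52 (SE, adjusted p = 0.279), and without CHX replicate 2 it was -2.02 ± 0.50 (SE, adjusted p = 0.00114). That of CELSR2 was -1.0 ± 0.46 (SE, adjusted p = 0.0722), and -1.23 ± 0.53 without that library (SE, adjusted p = 0.0522). Both rose with age in 6 pg explants, CELSR1 by 7.02 ± 0.68 and CELSR2 by 3.46 ± 0.50 on the log2 scale (SE, adjusted p = 5.35e-10 and 5.71e-07).

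Enveloping layer markers moved beside the junction genes. This outer epithelium of the blastula carries keratins and tight junctions, and 1 of its 24 listed genes, PKP1, is among the 150. The summed level of the 24 ran from 1907 to 3257 CPM with CHX at 5 hpf, against 9682 to 15470 CPM with 10 pg and 7212 to 21380 CPM in controls. At 4 hpf the sums were 2666 to 3597 CPM with CHX and 3456 to 3834 CPM with 10 pg. Of the 24 genes, 18 were lower and 1 higher with CHX than with 10 pg at 5 hpf, beside 24.2% and 25.0% of all genes tested. Without CHX replicate 2 the counts were 21 and 1, beside 26.0% of all genes lower. At 5 hpf the CHX libraries had 1 of the 24 genes at 0, and the 10 pg and control libraries had 0 of them at 0. The part of these cells in the lower levels of DSP, PERP and cldn23.1 was not tested.

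Matrix and secreted proteins, 8 genes, rose in all 3 independent comparisons with age. With CHX 3 of the 8 were lower than with 10 pg at 5 hpf, beside 24.2% of all genes tested. Without CHX replicate 2, 7 of 8 were lower, beside 26.0% of all genes. The laminin beta 1 gene LAMB1 (ENSDARG00000101209) had 0.447, 47.8 and 1.74 CPM with CHX at 5 hpf, against 9.88, 55.1 and 37.2 CPM with 10 pg and 11.9, 152 and 23.6 CPM in controls. CHX replicate 2 lay within the range of both other groups, and the log2 fold change over 10 pg was -1.47 ± 0.88 (SE, adjusted p = 0.173). Without that library it was -5.26 ± 0.98 (SE, adjusted p = 4.65e-05). Over controls, with all 3 libraries, it was -2.62 ± 0.91 (SE, adjusted p = 0.0179). LAMA1 (ENSDARG00000102277), for the laminin alpha 1 chain of the same basement membrane trimer, was at -0.12 ± 0.70 over 10 pg (SE, adjusted p = 0.901). In 6 pg explants LAMB1 had 149, 148 and 224 CPM at 6 hpf, against 0.244, 0.451 and 0.324 CPM at 4 hpf, so no library at 4 hpf reached 1 CPM. LAMA1 had 51.8, 81.6 and 119.7 CPM at 6 hpf, against 6.78, 8.32 and 7.6 CPM at 4 hpf.

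Receptors and guidance molecules made the third set, with 16 genes, of which 15 were higher at 6 than at 4 hpf in 6 pg explants. At 5 hpf 10 of the 16 were lower with CHX than with 10 pg, with a median log2 fold change of -1.38, or 15 of 16 without CHX replicate 2. NOTCH3 (ENSDARG00000052139), a Notch receptor, had 5.63, 72.6 and 9.4 CPM with CHX, against 131, 135 and 113 CPM with 10 pg. Every CHX library was lower, replicate 2 least so, and the log2 fold change was -2.50 ± 0.67 (SE, adjusted p = 0.00265). At 4 hpf NOTCH3 stood at 1.53 and 1.24 CPM with CHX and 2.73 and 1.61 CPM with 10 pg.

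**Figure D5:**
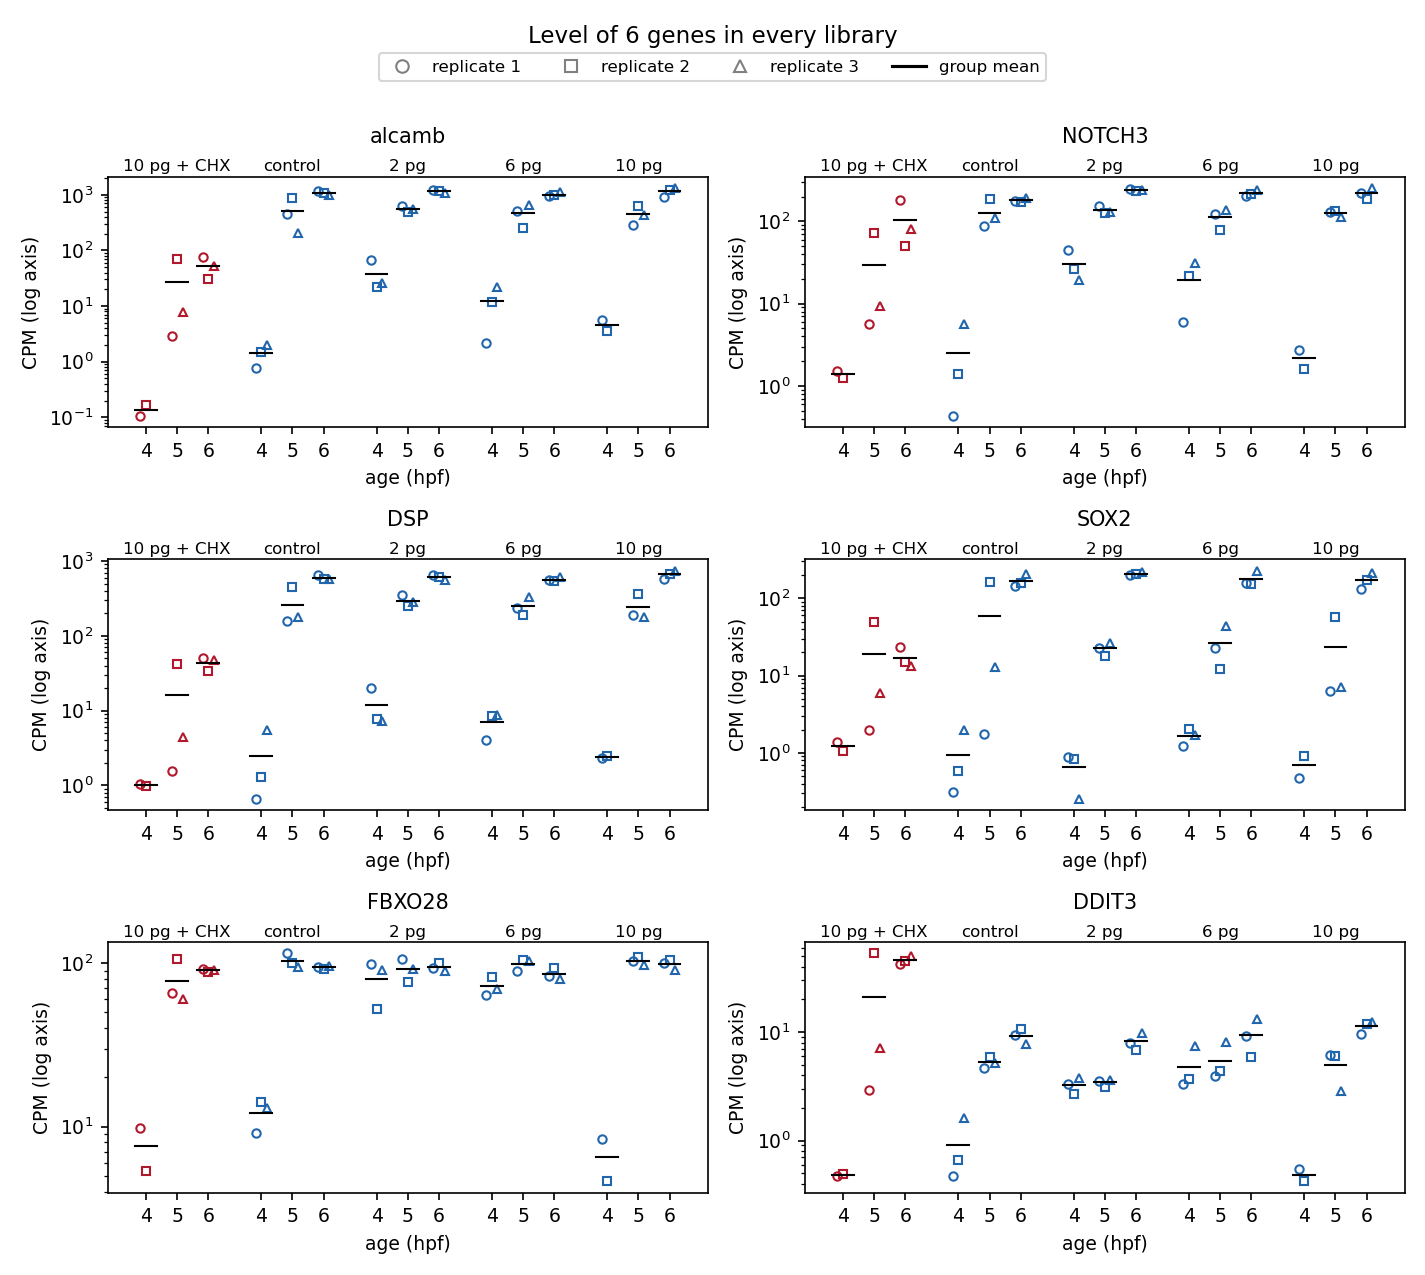
CPM of alcamb, NOTCH3, DSP, SOX2, FBXO28 and DDIT3 in every library on a log axis, by treatment and age; marker shapes are replicate numbers and black bars are group means. With CHX at 5 hpf replicate 2 is the highest library for each gene, as with 71.1 CPM of alcamb beside 2.86 and 7.7 CPM. At 6 hpf DDIT3 has 42.3 to 50.3 CPM with CHX, above all other groups of that age.

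The 150 genes include the Fgf receptors FGFR1 and FGFR2, the first called lower with CHX and the second not called with all libraries. FGFR1 (ENSDARG00000011190) had 19.9, 53.2 and 21.4 CPM with CHX at 5 hpf, against 60.4, 78.9 and 76.8 CPM with 10 pg, and fell by 1.56 ± 0.34 on the log2 scale (SE, adjusted p = 0.00024), or by 2.10 ± 0.36 without CHX replicate 2 (SE, adjusted p = 1e-05). FGFR2 (ENSDARG00000058115) had 1.03, 26.6 and 1.66 CPM with CHX, against 4.52, 6.46 and 2.98 CPM with 10 pg, and its log2 fold change was 0.67 ± 0.66 (SE, adjusted p = 0.418). Without CHX replicate 2 that of FGFR2 was -2.08 ± 0.56 (SE, adjusted p = 0.00216). At 6 hpf all 3 CHX libraries had more FGFR2 than any 10 pg library, at 37.4, 11 and 18.6 CPM against 7.74, 7.91 and 7.98 CPM, which is a description since the rule used those libraries. ROBO3, a receptor of the Slit axon guidance pathway, was also above the 10 pg mean with CHX at 6 hpf, at 49.9, 27.7 and 31.7 CPM against 24.7, 25.3 and 28.4 CPM. At 5 hpf the log2 fold change of ROBO3 was 0.28 ± 0.39 (SE, adjusted p = 0.578), and -0.53 ± 0.38 without CHX replicate 2 (SE, adjusted p = 0.253). The transmembrane semaphorin SEMA6D and the Eph receptor epha2b had log2 fold changes of -1.21 ± 0.54 and -1.23 ± 0.55 with CHX at 5 hpf, and neither was called (SE, adjusted p = 0.061 and 0.0612). Both were called without CHX replicate 2, at -2.45 ± 0.55 and -2.71 ± 0.54 (SE, adjusted p = 0.000455 and 8.67e-05).

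Of 18 intracellular signalling genes, 17 rose with age in 6 pg explants and 11 were lower with CHX than with 10 pg at 5 hpf, or all 18 without CHX replicate 2. With replicate 2 left out of both groups, DLC1 was not called, at -1.32 ± 0.615 (SE, adjusted p = 0.0808). The akap12b gene (ENSDARG00000055678), for a scaffold that holds protein kinases A and C, had 333, 932 and 228 CPM with CHX, against 2721, 3208 and 3728 CPM with 10 pg and 3248, 4276 and 2293 CPM in controls. The groups were well apart, and akap12b fell by 3.07 ± 0.43 on the log2 scale against 10 pg (SE, adjusted p = 6.84e-07). PLCD1 (ENSDARG00000059123), a phospholipase C that cleaves phosphoinositides, fell by 5.06 ± 0.85 (SE, adjusted p = 1.13e-05), with 0.358, 11 and 1.02 CPM with CHX against 64.1, 149.8 and 96.7 CPM with 10 pg. LATS2, a kinase of the Hippo pathway, fell by 1.99 ± 0.44 (SE, adjusted p = 0.000358).

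Transcription factors and chromatin proteins, 19 genes, rose in all 3 independent comparisons with age in every case. With CHX at 5 hpf 13 were lower than with 10 pg and 1 was higher, or 16 and 0 without CHX replicate 2. SOX2 (ENSDARG00000070913), a SoxB1 factor of neural and pluripotent cells, had 1.97, 49.1 and 6.04 CPM with CHX, against 6.23, 56.9 and 7.16 CPM with 10 pg and 1.75, 161 and 13 CPM in controls. In all 3 groups replicate 2 was many times higher than the other libraries, and the log2 fold change over 10 pg was -0.71 ± 0.94 (SE, adjusted p = 0.554). Without CHX replicate 2 it was -2.86 ± 1.09 (SE, adjusted p = 0.0296), and with replicate 2 left out of both groups -1.02 ± 0.99 (SE, adjusted p = 0.428). At 6 hpf SOX2 averaged 17.1 ± 5.27 CPM with CHX, against 172 ± 39.9 CPM with 10 pg (SD, n = 3 each), a description since the rule used those libraries. In 2 pg explants it had 199, 203 and 222 CPM at 6 hpf, against 0.876, 0.83 and 0.256 CPM at 4 hpf, the largest log2 fold change among the 150 genes in that comparison, at 8.83 ± 1.35 (SE, adjusted p = 1.64e-06).

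PRDM14 and lhx5 were not called against 10 pg with all libraries, and leaving out CHX replicate 2 turned the sign of both fold changes. PRDM14 (ENSDARG00000045371), a PR-domain factor of pluripotent and germ cells in mouse, had 3.62, 74.5 and 12.6 CPM with CHX at 5 hpf, against 2.21, 30.2 and 6.48 CPM with 10 pg. Each CHX library was above the 10 pg library of the same number, but the ranges overlapped, and the log2 fold change was 0.81 ± 0.87 (SE, adjusted p = 0.465), or -0.999 ± 0.929 without CHX replicate 2 (SE, adjusted p = 0.387). With replicate 2 left out of both groups it was 0.60 ± 0.92 (SE, adjusted p = 0.631). The LIM homeobox gene lhx5 (ENSDARG00000057936) had 8.18, 124 and 14.6 CPM with CHX, against 29.2, 47.7 and 17.7 CPM with 10 pg, at 0.24 ± 0.65 (SE, adjusted p = 0.784). Without CHX replicate 2 it was -1.76 ± 0.62 and was called (SE, adjusted p = 0.0187), and with replicate 2 left out of both groups it was -1.31 ± 0.64 (SE, adjusted p = 0.0963). At 6 hpf the mean of lhx5 with CHX was 88.3% of the 10 pg mean, a description since the rule used those libraries.

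AP-2 and ventral factors were lower with CHX. TFAP2A (ENSDARG00000059279), an AP-2 factor of surface ectoderm and neural crest, had 18.8, 124 and 16.6 CPM with CHX at 5 hpf, against 215, 230.3 and 189.8 CPM with 10 pg, and fell by 2.38 ± 0.46 on the log2 scale (SE, adjusted p = 6.97e-05). TFAP2C fell by 1.55 ± 0.63 (SE, adjusted p = 0.0401). The ventral homeobox repressor gene ved fell by 2.75 ± 0.74 (SE, adjusted p = 0.00249). The de novo DNA methyltransferase gene dnmt3ba fell less, by 1.11 ± 0.31 (SE, adjusted p = 0.00329), with 164, 244 and 193 CPM with CHX against 315, 362 and 345 CPM with 10 pg.

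DDIT3 (ENSDARG00000059836), the stress-response factor also called CHOP, was the gene called higher with CHX, and that call rested on 1 library. It had 2.95, 53.1 and 7.11 CPM with CHX at 5 hpf, against 6.16, 6.04 and 2.86 CPM with 10 pg and 4.67, 5.85 and 5.23 CPM in controls. The log2 fold change was 1.68 ± 0.55 over 10 pg and 1.46 ± 0.54 over controls (SE, adjusted p = 0.0108 and 0.0255). Without CHX replicate 2 the fold changes were -0.281 and -0.503. At 6 hpf all 3 CHX libraries were above all others, at 42.3, 45.1 and 50.3 CPM against 9.57, 12 and 12.3 CPM with 10 pg, a description since these libraries chose the genes. The atf4b gene, whose product acts upstream of DDIT3 in the integrated stress response of mammals, fell by 2.67 ± 0.51 with CHX at 5 hpf (SE, adjusted p = 6.64e-05).

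Of 8 RNA-binding protein genes, all were higher at 6 than at 4 hpf in 6 pg explants and 7 were lower with CHX than with 10 pg at 5 hpf, with a median log2 fold change of -2.31, or all 8 without CHX replicate 2. ESRP1 (ENSDARG00000011245), an epithelial splicing regulator, had 5.28, 57.4 and 9.4 CPM with CHX, against 189, 311 and 251 CPM with 10 pg. It fell by 3.78 ± 0.61 (SE, adjusted p = 7.17e-06), with no overlap between the groups. The hnRNP gene hnrnpa0a fell by 3.45 ± 0.39 (SE, adjusted p = 2.12e-08). SMG1, the kinase of nonsense-mediated mRNA decay, fell by 1.82 ± 0.26 (SE, adjusted p = 7.47e-07), with 79.7, 169 and 95.8 CPM with CHX against 302, 348 and 302 CPM with 10 pg.

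Cytoskeleton, lamina and trafficking genes numbered 7, all higher at 6 than at 4 hpf in 6 pg explants, and 5 were lower with CHX than with 10 pg at 5 hpf, with and without CHX replicate 2. DYNC1H1 (ENSDARG00000014717), the heavy chain of cytoplasmic dynein, was not among those 5. It had 18.5, 23.9 and 13.3 CPM with CHX, against 17.5, 12.4 and 11.6 CPM with 10 pg, and the log2 fold change of 0.09 ± 0.23 was within the error (SE, adjusted p = 0.761), as was -0.08 ± 0.25 without CHX replicate 2 (SE, adjusted p = 0.808). Its CHX libraries did not show replicate 2 far apart from the others. At 6 hpf DYNC1H1 had 30.8, 28.7 and 30.2 CPM with CHX, against 17.7, 19 and 21.7 CPM with 10 pg, a description since the rule used those libraries.

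Transport and metabolism was the largest set, with 25 genes, of which 24 rose with age in 6 pg explants and 16 were lower with CHX than with 10 pg at 5 hpf, or 22 without CHX replicate 2. Of those 22, LARGE2 and atp1b3a were not called by edgeR with replicate 2 left out of both groups (adjusted p = 0.0784 and 0.13). The monoacylglycerol lipase gene mgll averaged 24.8 ± 24.2 CPM with CHX, against 180.2 ± 44.1 CPM with 10 pg (SD, n = 3 each), and fell by 3.24 ± 0.52 (SE, adjusted p = 5.23e-06). SLC16A9, of the monocarboxylate transporter family, and CRABP2, a retinoic acid binding protein, had log2 fold changes of -5.63 and -4.29 and were called.

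Cell death, p53 and ubiquitin genes were few, and all 6 were lower with CHX than with 10 pg at 5 hpf, with and without CHX replicate 2. The sestrin gene sesn3 (ENSDARG00000015822), of a family that restrains growth signalling under stress, had 5.55, 16.4 and 2.68 CPM with CHX, against 205, 176 and 111 CPM with 10 pg, and fell by 4.68 ± 0.67 (SE, adjusted p = 9.49e-07). The BH3-only cell death gene bbc3 (ENSDARG00000069282) had 7.87, 8.08 and 5.32 CPM with CHX, against 134, 22.6 and 11 CPM with 10 pg. The 10 pg libraries of bbc3 varied widely among themselves, and the fall was 3.26 ± 0.77 (SE, adjusted p = 0.000797). The F-box gene FBXO28 (ENSDARG00000027159) differed by less: it had 65.9, 105 and 60.4 CPM with CHX, against 103, 109.6 and 98 CPM with 10 pg, and fell by 0.77 ± 0.23 (SE, adjusted p = 0.00504). In 2 pg explants 4 of the 6 genes were higher at 6 than at 4 hpf, beside 28.0% of all genes tested. The bbc3 and TP53INP1 genes were not called, at 0.32 ± 0.73 and 0.27 ± 0.43 (SE, adjusted p = 0.732 and 0.616).

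The remaining 31 genes were not placed in a role, and 19 of them were lower with CHX than with 10 pg at 5 hpf, or 28 without CHX replicate 2. The largest fall of all 150 genes was in this set. The si:ch211-125o16.4 gene (ENSDARG00000056836) had 2.5, 30.5 and 2.89 CPM with CHX, against 732, 1266 and 1012 CPM with 10 pg, and fell by 6.79 ± 0.86 on the log2 scale (SE, adjusted p = 1.38e-07). At 6 hpf it had 73, 10.8 and 18.2 CPM with CHX, against 1291, 1765 and 1399 CPM with 10 pg. The plekhn1 gene was one of those above the 10 pg mean at 6 hpf, at 298, 164 and 212 CPM with CHX against 141, 69.1 and 61.1 CPM with 10 pg. These values at 6 hpf are a description, since the rule used those libraries.

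At 4 hpf the genes were at different levels in the explants injected with different amounts of ndr2. Their share of counts was 0.601 ± 0.167% with 2 pg, 0.421 ± 0.147% with 6 pg (SD, n = 3 each) and 0.206 ± 0.0489% with 10 pg (SD, n = 2), beside 0.141 ± 0.0404% in controls (SD, n = 3). The mean share was lower at each higher dose, and the uninjected controls were lowest. In tests added after these values were seen, 71 of the 150 genes were lower with 10 pg than with 2 pg and 0 higher, beside 11.9% and 10.6% of all genes. With 10 pg against 6 pg, 36 were lower and 0 higher, beside 8.12% and 7.29% of all genes. The first count was 41 without 2 pg replicate 1, 47 without 10 pg replicate 1 and 21 without 10 pg replicate 2, and the second was 7 without 10 pg replicate 2. The 2 pg mean was above the control mean at 4 hpf in 147 genes, a count not made over all genes tested. The choice of genes favoured a low control mean at 4 hpf, so the place of controls below the injected groups is a description.

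Single genes show how far apart the explants were at that age. FBXO28 had 8.34 and 4.61 CPM with 10 pg at 4 hpf, against 98.3, 52.5 and 90.4 CPM with 2 pg, and the log2 fold change was -3.79 ± 0.30 (SE, adjusted p = 4.39e-10). Replicates 1 and 3 with 2 pg were close to the level that FBXO28 held in controls at 6 hpf, 94.6, 92.2 and 95.9 CPM, while replicate 2 was lower. The si:ch1073-385i9.2 gene (ENSDARG00000063300) had 1.91 and 0.28 CPM with 10 pg, against 51.9, 48.3 and 56.2 CPM with 2 pg. In 2 pg explants this gene stood at 17.2, 21.4 and 22.3 CPM at 6 hpf, and the log2 fold change with age was -0.82 ± 0.37 (SE, adjusted p = 0.0516). DYNC1H1 had 2.19 and 1.47 CPM with 10 pg at 4 hpf, against 17.5, 14 and 19.4 CPM with 2 pg. TNFRSF21, a death-domain receptor, stood at 7.95 ± 1.88 CPM at 6 hpf in 2 pg explants, against 19.8 ± 11.1 CPM at 4 hpf (SD, n = 3 each), and was not called (log2 fold change -0.80 ± 0.54, SE, adjusted p = 0.209).

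Maternal transcripts differed between the same libraries at 4 hpf. The summed level of 19 maternally loaded transcripts, none of them among the 150, ran from 10370 to 12290 CPM with 10 pg, against 6757 to 8397 CPM with 2 pg. With 6 pg it ran from 9343 to 11860 CPM and in controls from 9312 to 12090 CPM. The 2 pg libraries were thus the lowest in maternal transcripts, and the 2 pg mean was the highest in the share of the 150 genes, although 6 pg replicate 3, at 0.552%, lay above 2 pg replicates 2 and 3, at 0.479% and 0.533%. The part of this difference in the levels of the 150 genes was not tested.

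At later ages the 150 genes were compared in 3 pairs of groups that differed in ndr2 dose, and edgeR called none of them. At 5 hpf 0 genes were called in either direction with 10 pg over controls, where 0.223% of all genes were higher and 0.00% lower, and the median log2 fold change of the 150 was -0.191. With an unadjusted p under 0.05 in edgeR there were 1 higher and 1 lower, beside 391 and 527 of all 21075 genes, and DESeq2 called 0. With 10 pg over 2 pg at 5 hpf edgeR called 0 of the 150, beside 0.0759% of all genes higher and 0.00949% lower. DESeq2 called 1 higher. In edgeR 3 higher and 1 lower had an unadjusted p under 0.05, beside 945 and 835 of all 21075 genes. The median log2 fold change of the 150 was -0.296, with 113 genes negative and 37 positive. With 6 pg over 2 pg at 6 hpf 0 were called by edgeR and by DESeq2, beside 0.00% of all genes in edgeR. An unadjusted p under 0.05 in edgeR was found for 0 of the 150, beside 563 genes higher and 236 lower among all genes. A p that misses the threshold does not show that the doses gave equal levels. The choice of genes kept only those with a 10 pg mean within 1 log2 unit of controls at 6 hpf. It thus favoured genes that differ little with ndr2, and the lack of calls at 5 hpf is not a separate result. In edgeR the 6 pg over 2 pg pair called no gene at all, so it cannot set the 150 apart from other genes.

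Gene lists drawn up for this tissue overlapped with 20 of the 150 genes. Among all genes tested, 28.3% were higher and 31.3% lower at 6 than at 4 hpf in 6 pg explants. At 5 hpf 24.2% were lower and 25.0% higher with CHX than with 10 pg. Without CHX replicate 2, 26.0% were lower against 10 pg and 26.1% against controls, and 5270 and 5046 of 21012 genes were higher. Of 38 early zygotic genes tested, of which 3 are among the 150, 28 were higher and 3 lower at 6 than at 4 hpf in 6 pg explants, and 26 were lower and 2 higher with CHX than with 10 pg at 5 hpf. Of 28 p53 and stress genes, 5 of them among the 150, 16 were higher and 3 lower with age in 6 pg explants, and 19 were lower and 2 higher with CHX. Of 23 Bmp pathway and ventral genes, 13 were lower and 3 higher with CHX, and of 16 Notch and Delta genes 4 were lower and 2 higher, beside the 24.2% lower and 25.0% higher among all genes. Of 20 Fgf and Erk feedback genes 11 were lower and 2 higher with CHX than with 10 pg, with a median log2 fold change of -1.22. Against controls 5 of the 20 were lower, beside 24.6% of all genes, and 8 higher, beside 24.1%, with a median of 0.775. Without CHX replicate 2, the counts against 10 pg were 32 lower and 1 higher for early zygotic genes, 20 and 1 for p53 and stress genes, 16 and 2 for Bmp pathway and ventral genes, 9 and 2 for Notch and Delta genes, and 14 and 1 for Fgf and Erk feedback genes. The Fgf and Erk feedback genes were then 7 lower and 4 higher against controls, with a median of -0.168.

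Most maternally loaded and germ cell transcripts were higher with CHX. Among all genes tested, 25.0% were higher and 24.2% lower with CHX than with 10 pg at 5 hpf. Of 19 maternally loaded transcripts, 13 were higher and 1 lower with CHX than with 10 pg at 5 hpf, or 14 and 1 without CHX replicate 2, and their summed level ran from 7755 to 12750 CPM with CHX against 5200 to 5417 CPM with 10 pg. Of 12 primordial germ cell genes, 8 were higher and 2 lower, or 9 and 1 without that library, with sums of 2019 to 3301 CPM with CHX against 936.2 to 1212 CPM with 10 pg. Yolk syncytial layer markers were low in all explants, with sums of 6.887 to 25.44 CPM with CHX, 15.78 to 128.8 CPM in controls and 18.42 to 63.73 CPM with 10 pg at 5 hpf. The part of this larger maternal share in the lower levels of the 150 genes with CHX was not tested.

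Transcripts of the maternal activators took a different course with CHX. The nanog mean was 1713, 1632 and 1774 CPM at 4, 5 and 6 hpf with CHX, and 1911, 1140 and 422 CPM in controls. The sox19b mean was 424, 413 and 174 CPM with CHX, and 475, 51.5 and 59.7 CPM in controls. The pou5f3 mean was 1385, 1315 and 1345 CPM with CHX, and 1513, 2235 and 2395 CPM in controls. These levels are given without a test.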

How the data were processed

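Gene counts of 45 bulk RNA-seq libraries were deposited as one table. The authors made these counts with STAR, featureCounts and the GRCz11 build, and DESeq2 is also named, all per the submitters' processing notes; no version or strand setting is stated in them, so reads of overlapping or antisense genes cannot be told apart. Total RNA was extracted with TRIzol, per the labels' protocols. CPM was computed from library totals. Symbols came from a reference table of gene names and 35 of the 150 genes share a symbol with another gene ID, so near-identical copies may share reads. Sample labels also carry other dose figures in a description field; the titles were followed.

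Counts were tested with edgeR 4.0.16 (limma 3.58.1, R 4.3.3) by the quasi-likelihood test, with TMM scaling, filterByExpr (count minimum 10, total minimum 15), 43 libraries and 15 groups in one fit with 28 residual degrees of freedom, and Benjamini-Hochberg adjustment within each of 12 comparisons at 0.05. DESeq2 1.42.0 was an alternative. On simulated data, with 20206 genes for CHX against 10 pg at 5 hpf, 32%, 88%, 100% and 100% of genes changed 2-, 4-, 8- and 16-fold were recovered, with 9 false calls. For 6 pg at 6 over 4 hpf the recovery was 38%, 80%, 90% and 98%, with 8 false calls. No simulated library was set apart as CHX replicate 2 was, and the lowest genes were not changed. Recovery in the real libraries may thus be lower. Log2 fold changes at low counts depend on the tool's prior count.

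The members, their roles and the gene lists were chosen with earlier results of these data known. Genes named in the text were taken from the 20 largest rises, both sides of the limit, the lists, the 4 largest called changes in each direction, and gene families among the 150; other genes of a role, such as akap12b, mgll and FBXO28, were added after their values were seen. Same-numbered libraries were compared over 8286 genes by the correlation of their deviations from the group means. This was 0.35 to 0.5 for CHX and 10 pg at 5 hpf, and 0.2 to 0.33 for CHX and controls at 5 hpf. For 2 pg at 5 and 4 hpf it was 0.11 to 0.36. It was -0.5 to 0.35 for 10 pg and 2 pg at 5 hpf, and -0.51 to -0.22 for 6 pg and 2 pg at 6 hpf. Same-numbered libraries thus shared deviations in some comparisons and not in others, and no label says what a number marks. The main fit did not use the numbers. No chromosome, gene length or promoter was analysed here.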

Additional observations from a re-analysis of the deposited data

How the results depend on the processing

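Fits were repeated with RLE factors, library totals, DESeq2, no filter, a replicate block, and a replicate block within each age. They were also repeated with only the groups compared, all 45 columns, each library left out, and replicate 2 left out of both groups of a CHX comparison. Fitted on the groups compared alone, 64 genes were lower with CHX against 10 pg and 54 against controls at 5 hpf. Beside them 4059 of 17717 and 3240 of 17492 of all genes tested were lower. DESeq2 called 1 gene for 10 pg over 2 pg at 5 hpf. With the replicate block 98 genes were lower with CHX against 10 pg, 105 against controls, and 120 were higher in 2 pg explants at 5 over 4 hpf. No count of calls moved by over 1.5 times with that block. A block within each age, added after the values were seen, gave 109 genes lower with CHX against 10 pg and 108 against controls. It gave 104 higher in 2 pg explants at 5 over 4 hpf, and 53 lower with 10 pg than with 2 pg at 4 hpf. Leaving out one library gave 78 to 135 genes lower with CHX against 10 pg and 80 to 135 against controls, and 133 to 148 higher in 10 pg explants at 5 over 4 hpf. The counts higher with age were 127 to 140 for 2 pg at 6 over 4 hpf, 137 to 144 for 6 pg at 6 over 4 hpf, 109 to 129 for 2 pg at 5 over 4 hpf, and 125 to 134 for 6 pg at 5 over 4 hpf. At 4 hpf 21 to 74 were lower with 10 pg than with 2 pg, and 7 to 39 than with 6 pg; where 1 library of 10 pg remained, it was assumed to vary like the other groups. The 3 comparisons with 0 calls gave 0 to 0. Among named genes called with all libraries, reversed values were DDIT3 with CHX without CHX replicate 2 at 5 hpf, -0.281 over 10 pg and -0.503 over controls, and -0.104 and -0.274 with replicate 2 left out of both groups (up to 2.19 and 1.97 when another library was left out), SOX2 with CHX over controls without control replicate 2, 1.04 against -2.35 with all libraries (down to -4.49 without CHX replicate 2), and, with all 45 columns, EPS15L1 and lhx5 with 10 pg over 6 pg at 4 hpf, 0.227 and 0.282; the cause was not tested. Of 5124 values for the 368 pairs of a named gene and a comparison in which it was called, 4860 kept direction and side of the threshold and 257 were no longer called. Uncalled pairs are outside this tally: the fold changes of FGFR2, lhx5, PRDM14 and ROBO3 with CHX over 10 pg change sign without CHX replicate 2. Scaling by library totals shifted the median of all genes: in 2 pg explants at 6 over 4 hpf to -0.63, with 4134 higher and 8617 lower instead of 5901 and 6483, and in 6 pg explants to -0.77, with 3787 and 9225 instead of 5968 and 6601. There 123 and 131 of the 150 genes were higher and 2 and 1 lower. For CHX the shift was 0.36 over 10 pg and 0.49 over controls, with 84 and 80 of the 150 lower, and the calls over all genes were 6686 higher and 3751 lower instead of 5265 and 5108 over 10 pg, and 7138 and 3430 instead of 5089 and 5194 over controls. At 5 over 4 hpf they were 3168 and 6075 instead of 4507 and 4385 with 2 pg, 2939 and 7156 instead of 4850 and 4919 with 6 pg, and 3711 and 5826 instead of 4840 and 4541 with 10 pg. For 10 pg over 2 pg at 4 hpf they were 2799 and 1966 instead of 2227 and 2506. Under other settings of the rule, 133 genes remained members with TMM scaling, 124 with a pseudocount of 0.5, 134 with all 3 CHX columns at 4 hpf, and 130 to 150 with one library left out. Counts under 3 per library at 4 hpf limit the fold changes of the lowest genes. The chromosome and promoter description that was planned was not run.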
